A study of Mus musculus with 20 samples.

Results

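The genes examined were 10 imprinted genes whose expression is set by DNA methylation, followed in bladder tissue of mice given a DNA methyltransferase inhibitor. They were taken by gene symbol from the platform annotation of the array: H19, Igf2, Meg3, Dlk1, Peg3, Peg10, Cdkn1c, Plagl1, Mest and Grb10. Of the 10, 8 had a row to themselves, among 30142 genes so represented. The row of H19 also carries the symbol of a microRNA gene inside it, Mir675, and the row of Meg3 carries those of Mir770 and of 2 Mir1906 genes. These 2 are given as the H19 shared row and the Meg3 shared row, as values with no limma test, because their signal could not be assigned to a single gene.

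The arrays covered 5 groups: treated bladder (n = 3), bladder tumor (n = 7), control bladder (n = 5), treated metastasis (n = 1) and metastasis (n = 4). Every mouse was on the FVB/N background and carried floxed Rb (Rbf/f) with other floxed alleles and lacked p107 (p107-/-), the controls included. Tumors were started by placing an adenovirus that codes for Cre recombinase in the bladder, while control bladders were normal bladders of the same line, and the labels do not say which cells took up the virus. Treated mice had received CM272, an inhibitor of both the histone methyltransferase G9a and the DNA methyltransferases, at 5 mg/kg per day by intraperitoneal injection for 30 days, together with cisplatin (CDDP) at 6 mg/kg once per week. No group had only CM272 or only cisplatin, so the effects of these agents cannot be told apart. The treated bladders are labelled as bladder, not as tumor, and the share of tumor in them is not given. The labels number the samples but do not say that they are different animals; p-values reflect only the variation among samples, part of which may be technical. RNA was extracted with a kit made for fixed and embedded (FFPE) tissue.

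An imprinted gene is expressed from the copy inherited from a single parent. The choice is written in the germ line as DNA methylation at control regions, where cytosines of CG dinucleotides are methylated on the copy from either the mother or the father, and DNA methyltransferases copy that mark at each cell division. Many imprinted genes act on fetal growth: growth factors expressed from the paternal copy (Igf2) stand against growth restraints expressed from the maternal copy (Cdkn1c and, in most tissues, Grb10), and many are turned down in adult tissue. Loss of the mark can turn a gene up or down, depending on whether methylation silences the gene itself or a silencer of it.

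The CG content of the start sites shows how much substrate for DNA methyltransferases lies there. Windows of 300 bases, from 250 before to 50 after an annotated start, came from RefSeq for the build GRCm38.p6, and 7 of the 10 genes had at least 1 (14 windows in all). Over all 32851 windows in that table the median count of CG was 7, and 94.6% held at least 1. CG reads the same on both strands. The window with the most CG of each of 3 members is printed, for Grb10 and Mest because they had the smallest p-values in treated bladder against tumor, and for Peg3 because its values had the widest range over the arrays. Each is written 5′ to 3′ on the strand of its gene, and capitals mark each CG.
Grb10, chr11:12037371-12037670, minus strand: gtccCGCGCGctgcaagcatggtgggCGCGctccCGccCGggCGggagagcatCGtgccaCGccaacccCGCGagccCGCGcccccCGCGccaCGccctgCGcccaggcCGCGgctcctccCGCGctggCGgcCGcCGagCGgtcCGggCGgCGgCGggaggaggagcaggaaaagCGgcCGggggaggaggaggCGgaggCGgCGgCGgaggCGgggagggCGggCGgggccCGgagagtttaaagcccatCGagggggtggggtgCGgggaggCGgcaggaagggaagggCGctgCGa
Mest, chr6:30737800-30738099, plus strand: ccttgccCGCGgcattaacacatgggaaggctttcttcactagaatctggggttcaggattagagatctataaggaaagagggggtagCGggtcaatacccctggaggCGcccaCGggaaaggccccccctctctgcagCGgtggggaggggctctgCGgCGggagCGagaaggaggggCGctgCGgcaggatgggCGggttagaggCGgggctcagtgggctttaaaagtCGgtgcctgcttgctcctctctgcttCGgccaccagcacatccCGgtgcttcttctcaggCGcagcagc
Peg3, chr7:6730370-6730669, minus strand: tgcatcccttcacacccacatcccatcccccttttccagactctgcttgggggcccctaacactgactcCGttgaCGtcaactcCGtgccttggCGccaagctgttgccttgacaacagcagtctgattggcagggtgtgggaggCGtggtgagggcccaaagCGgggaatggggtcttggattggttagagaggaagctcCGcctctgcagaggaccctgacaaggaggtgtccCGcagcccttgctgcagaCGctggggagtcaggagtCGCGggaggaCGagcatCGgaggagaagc
The Grb10 window held 45 CG, more than 98.1% of all windows. The Mest window held 17 and the Peg3 window 13, with fewer CG in 68.6% and 62.1% of windows. The richest windows of the other matched genes held 26 CG for Plagl1, 24 for Igf2, 13 for Meg3 and 9 for Dlk1. These counts describe the reference sequence: methylation was not measured here, and the start site that the array probes report is not known.

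The values are log2 signals after RMA, on which a difference of 1 is 2-fold, and array medians ran from 5.07 to 5.42. As a mark for low signal, the 95th percentile of 1771 chemosensory receptor genes, a class expected to be silent in bladder, was taken on each array and is called the receptor level; it ran from 5.45 to 6.26. In 8 arrays (bladder tumor 3, 4 and 5, control bladder 4, 5 and 6, metastasis 3 and 4) the deviations of genes from their means correlated with those of no other array above 0.14, against highest values of 0.33 to 0.61 for the other 12 arrays. These 8 are called near-mean arrays, since their values lie close to each gene's mean, and they held none of the treated samples. Xist, expressed from the inactive X chromosome of females, read 10.8 and 10.9 in control bladder 1 and 2. It read 5.82 to 6.09 in the near-mean arrays. In treated bladders it read 5.98, 5.59 and 6.44, and in the treated metastasis 5.58. The untreated tumors and metastases that are not near-mean all read lower, at 4.47 to 4.89. The cause of this difference was not tested. Without the near-mean arrays, the control group is control bladder 1 and 2 alone, so a difference from control cannot then be told apart from sex. Of 12 urothelial markers, 7 to 11 were above the receptor level in treated bladders, 2 to 12 in tumors, 8 to 11 in control bladders, 3 in the treated metastasis and 3 to 8 in metastases. These are bulk tissue samples, in which fewer cells of a type and less RNA per cell cannot be told apart.

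Most values of the members were not above the receptor level. By mean over the 20 arrays, Peg3 was above 80.5% of all genes, Grb10 above 70.5%, Cdkn1c above 68.3% and Mest above 63.4%. Plagl1 was above 56.9%, Igf2 above 53.7%, Peg10 above 49.0% and Dlk1 above 23.8%. Of 160 values of the 8 members with their own row (8 genes on 20 arrays), 41 were above the receptor level of their array. Dlk1 was above it on 0 arrays, Igf2 on 1, Peg10 and Plagl1 on 3 each, Mest on 4, Grb10 on 7, Cdkn1c on 8 and Peg3 on 15. No member was above it on all 20 arrays, against 10.8% of all genes, and 1 of 8 was above it on none, against 45.9% of all genes. The treated bladders differed among themselves: 5 of 8 members were above the level in treated bladder 2, with a receptor level of 5.72, and 0 in treated bladders 1 and 3, with receptor levels of 6.12 and 6.19. Tumors had 1 to 4 members above the level, control bladders 1 to 4, the treated metastasis 4 and metastases 1 to 4. The share of all genes above the level was not taken array by array, so these counts describe the members alone.

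**Figure D1:**
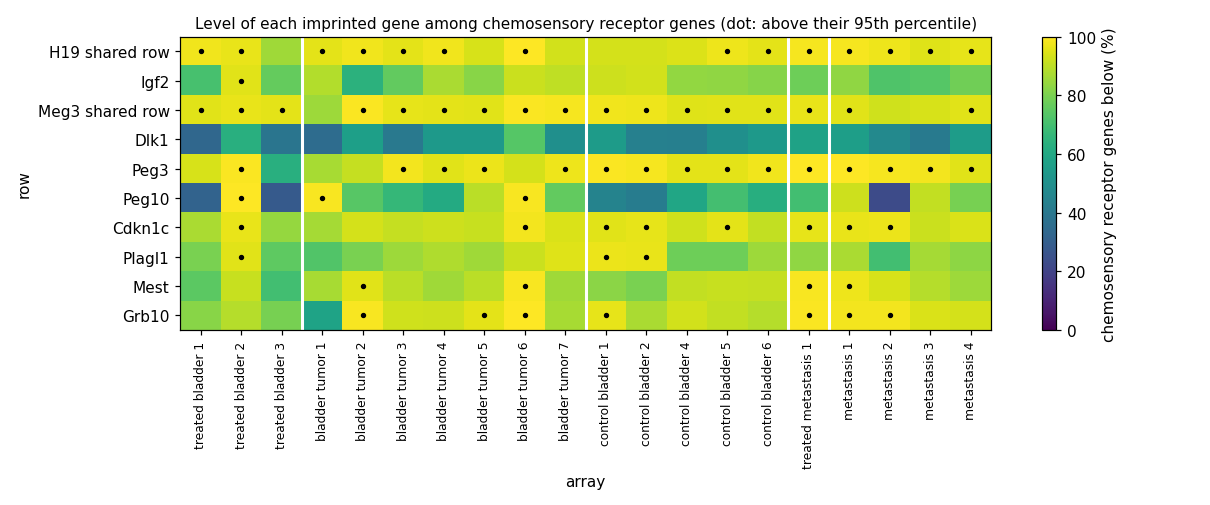
Share of the chemosensory receptor genes (colour, in percent) that read below each listed row, down the page, on each array, along the page by group; a dot marks a value above their 95th percentile, the receptor level. Peg3 was above the level on 15 of 20 arrays, Dlk1 on 0 and Igf2 on 1.

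Among the ligands, Igf2 codes for a fetal growth factor that signals through the IGF1 receptor and is expressed from the paternal copy. It read 5.37, 5.76 and 5.55 in treated bladders, against a lowest of 5.15, a median of 5.43 and a highest of 5.92 in tumors and 5.56, 5.71, 5.45, 5.45 and 5.43 in control bladders. The treated metastasis read 4.99, and metastases read 5.06, 5.12, 5.28 and 5.34. The bladder groups overlapped, all 4 metastases lay below the tumor mean, and the treated metastasis had the lowest value of all arrays. Igf2 was above the receptor level in treated bladder 2 alone, so its other values could not be told from those of silent genes. Dlk1, a membrane protein related to Notch ligands that restrains fat cell differentiation, is also expressed from the paternal copy. Its values were 4.82, 4.89 and 4.95 in treated bladders, 4.73 to 5.04 with a median of 4.90 in tumors, 4.77 to 4.89 in control bladders, 4.65 in the treated metastasis and 4.68 to 4.93 in metastases. Its SD over the 20 arrays was 0.10, and every value lay under the receptor level.

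The restraints on growth are Grb10, an adaptor protein that dampens signalling of the insulin and IGF1 receptors, and Cdkn1c, which codes for the cyclin-dependent kinase inhibitor p57. Grb10 read 5.62, 5.41 and 5.61 in treated bladders. Tumors 1 to 7 read 5.31, 6.43, 5.78, 5.75, 6.04, 6.75 and 5.41, and control bladders read 5.82, 5.47, 5.80, 5.68 and 5.67. The treated bladders were at the low end of the tumors, below the 5 highest of 7, and overlapped tumors 1 and 7. Grb10 read 6.61 in the treated metastasis, above all 4 metastases at 5.90, 6.25, 5.98 and 5.80. Tumor 6 and the treated metastasis had the highest readings. Cdkn1c was nearly flat, at 5.79, 5.90 and 5.73 in treated bladders, 5.70 to 5.84 with a median of 5.76 in tumors, 5.76 to 5.99 in control bladders, 5.67 in the treated metastasis and 5.63 to 5.95 in metastases. Its SD over all arrays was 0.09, against a median of 0.26 over all genes.

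Peg3 and Plagl1 code for zinc-finger proteins expressed from the paternal copy, and Plagl1 is a transcription factor that restrains the cell cycle. Peg3 read 6.08, 6.59 and 5.29 in treated bladders, against a lowest of 5.37, a median of 5.97 and a highest of 6.28 in tumors and 6.84, 6.38, 6.07, 6.01 and 6.48 in control bladders. In the treated metastasis it read 6.96, against 7.79, 6.32, 6.44 and 5.97 in metastases. Treated bladders 2 and 3 held values above and below the whole tumor range, and metastasis 1 stood above all other arrays. Plagl1 read 5.55, 5.76 and 5.52 in treated bladders, 5.30 to 5.73 with a median of 5.51 in tumors and 5.94, 5.93, 5.32, 5.32 and 5.53 in control bladders. The treated metastasis read 5.11 and metastases 5.13, 5.09, 5.58 and 5.46. Control bladder 1 and 2, the arrays with high Xist, were the highest for Plagl1, and both lay above the other 3 control bladders. Those 3 are all near-mean arrays, so a difference that goes with Xist cannot be told apart from that split.

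Mest, a protein of the alpha/beta hydrolase fold, and Peg10, which derives from a retrotransposon and is needed for the placenta, are expressed from the paternal copy. Mest read 5.46, 5.51 and 5.42 in treated bladders. Tumors 1 to 7 read 5.86, 5.97, 5.66, 5.53, 5.63, 6.21 and 5.37, and control bladders 5.24, 5.30, 5.69, 5.72 and 5.80. All 3 treated bladders lay below 6 of the 7 tumors and above tumor 7. The treated metastasis read 6.28, above all 4 metastases (5.50 to 5.70). Peg10 was at 4.80, 6.95 and 4.80 in treated bladders, with a single high array. Tumors 1 to 7 read 6.88, 5.31, 5.11, 5.04, 5.64, 6.15 and 5.17, and control bladders 4.71, 4.75, 5.00, 5.16 and 5.03. Treated bladder 2 and tumors 1 and 6 were the 3 arrays with Peg10 above the receptor level. Peg10 read 4.82 in the treated metastasis and 4.52 to 5.74 in metastases.

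The maternal noncoding RNAs H19 and Meg3 were measured in shared rows. The H19 shared row read 6.51, 5.89 and 5.77 in treated bladders, 5.64 to 6.79 with a median of 6.15 in tumors and 5.62 to 6.17 in control bladders. It read 6.10 in the treated metastasis, within 6.03 to 6.13 in metastases. The Meg3 shared row read 6.18, 5.86 and 6.28 in treated bladders, 5.81 to 6.75 with a median of 6.02 in tumors, 5.96 to 6.13 in control bladders, 5.69 in the treated metastasis and 5.48 to 5.97 in metastases. The treated and untreated ranges overlapped in both rows. They were above the receptor level on 14 and 17 of the 20 arrays.

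**Figure D2:**
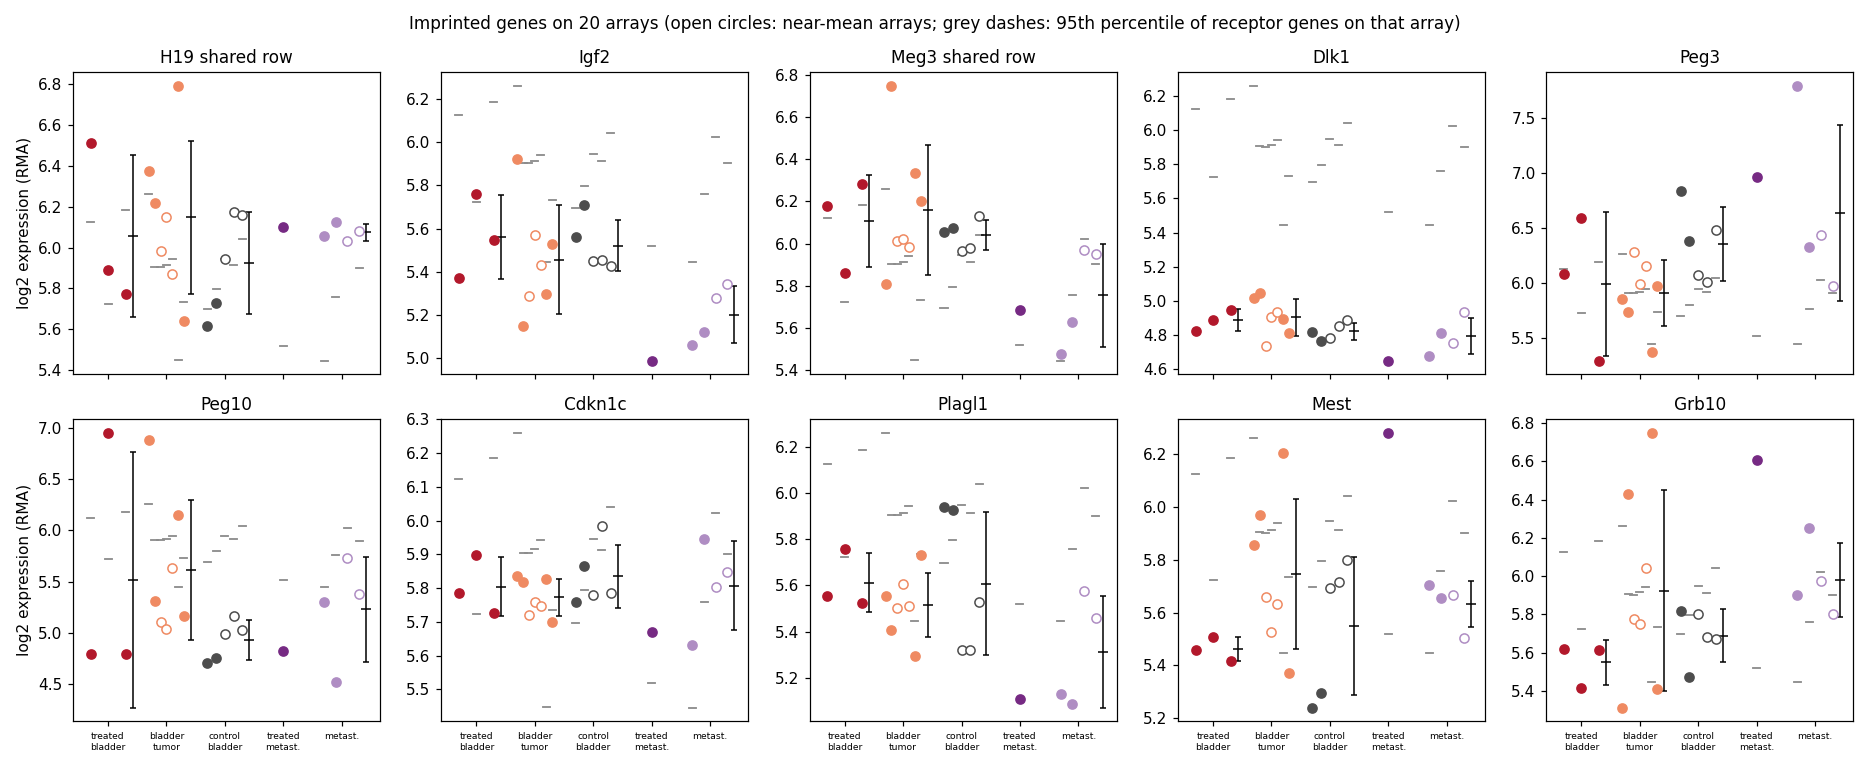
Log2 signal of the 8 members with their own row and the 2 shared rows on every array, by group, each panel with its own scale. Black marks give the group mean ± SD, grey dashes the receptor level of the array, and open circles the near-mean arrays; Peg10 has single high arrays in treated bladder (6.95) and tumor (6.88), while Cdkn1c and Dlk1 are nearly flat.

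Treated bladder was compared with bladder tumor to ask whether the drug pair went with a shift of imprinted genes. None of the 8 members passed limma's test at an adjusted p under 0.05, and none of all 30142 genes did (0%). At an unadjusted p under 0.05 there were 147 genes and 0 members. Those genes are a share of all 30142 well below 0.05, so p-values in this comparison were mostly high. The 3 treated bladders overlapped the 7 tumors for all 8 members, against 0.166% of all genes with groups that did not overlap. Mest averaged 5.46 ± 0.04 in treated bladder (SD, n = 3) and 5.75 ± 0.28 in tumor (SD, n = 7), a log2 difference of -0.28 with a standard error of 0.16 and a 95% interval of -0.61 to 0.05. Its limma p was 0.0877 unadjusted and 0.99997 adjusted, with all 3 treated bladders below the tumor mean. Grb10 averaged 5.55 ± 0.12 in treated bladder (SD, n = 3) and 5.92 ± 0.52 in tumor (SD, n = 7), a difference of -0.38 (standard error 0.23, interval -0.86 to 0.11). Its limma p was 0.121 unadjusted and 0.99997 adjusted, again with 3 of 3 below the tumor mean. Of all genes, 1.23% had a smaller p than Mest and 1.91% a smaller p than Grb10. These were the smallest p-values among the 8 members. Mest was above the receptor level in 0 of 3 treated bladders and 2 of 7 tumors, and Grb10 in 0 of 3 and 3 of 7. The treated values of both could thus not be told from those of silent genes. Without tumor 6 the Grb10 difference was -0.24.

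Cell type markers also differed between these groups. In treated bladder all 12 urothelial markers had a higher mean than in tumor (median difference 0.45), as did 8 of 9 smooth muscle markers (median 0.67), while all 10 leukocyte markers (median -0.36), all 9 cell cycle markers (median -0.38) and 6 of 9 fibroblast markers (median -0.20) had a lower one. limma called 0 of them. The mean of the fibroblast markers was 6.32 to 7.25 in treated bladders and 6.07 to 8.20 in tumors, with 5 to 8 and 4 to 8 of the 9 above the receptor level. Cell cycle markers averaged 5.38, 6.32 and 5.43 in treated bladders and 5.41 to 6.95 in tumors. Tumor 6, highest for Grb10 and Mest among tumors, was the highest tumor for both of these lists. It was also the highest tumor for leukocyte markers (7.86) and for skeletal muscle markers (5.91, with 7 of 10 above the receptor level). The part of the markers in the result was not tested.

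The other members showed no common direction. Igf2 differed by 0.10 (interval -0.19 to 0.39), Plagl1 by 0.10 (-0.22 to 0.41), Cdkn1c by 0.03 (-0.15 to 0.21) and Dlk1 by -0.02 (-0.20 to 0.16). Without treated bladder 2 the differences of Igf2 and Plagl1 were 0.00 and 0.02. All 4 intervals exclude a 2-fold difference in signal. The spread behind the intervals includes the near-mean arrays, which hold no treated sample and vary less. Over those arrays the SD was 0.10 for Igf2 and 0.11 for Plagl1, against 0.30 for each over the other 12. Since Dlk1 and nearly all Igf2 values lay under the receptor level, the intervals bound their signal and not their RNA. Plagl1 was above that level in 1 of 3 treated bladders and 0 of 7 tumors, and Cdkn1c in 1 of 3 and 1 of 7. The same limit thus holds for Plagl1 and Cdkn1c. Peg3 and Peg10 were measured less closely. Peg3 averaged 5.99 ± 0.66 in treated bladder (SD, n = 3) and 5.91 ± 0.30 in tumor (SD, n = 7), a difference of 0.08 with an interval of -0.60 to 0.76. It was -0.22 without treated bladder 2 and 0.43 without treated bladder 3. Peg10 averaged 5.52 ± 1.24 in treated bladder (SD, n = 3) and 5.61 ± 0.68 in tumor (SD, n = 7), a difference of -0.10 with an interval of -1.001 to 0.807. Treated bladder 2 decided this value: without it the difference was -0.82, with a limma p of 0.0484 unadjusted and 0.985 adjusted. It was 0.26 without treated bladder 1.

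**Figure D3:**
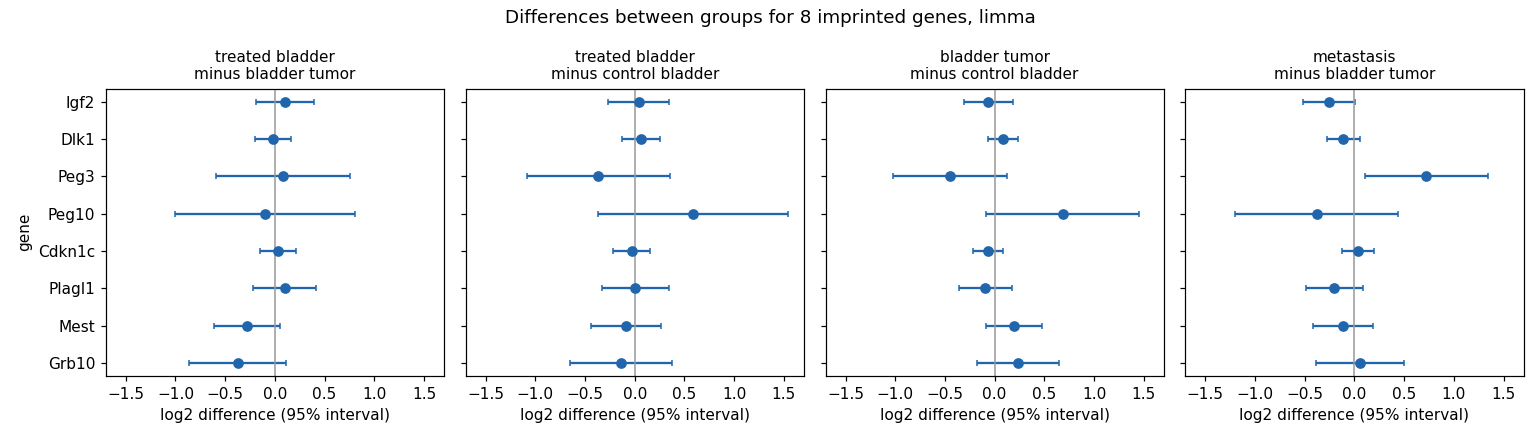
Log2 differences of the 8 members in the comparisons, with 95% limma intervals. All intervals of treated bladder minus tumor span 0, from the narrow ones of Dlk1 and Cdkn1c to that of Peg10 (-1.001 to 0.807).

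Treated bladder against control bladder gave a like result. limma called 0 members and 0 of all genes (0%), with 230 genes and 0 members at an unadjusted p under 0.05, and no member had groups that did not overlap, against 1.19% of all genes. Peg10 was higher on average by 0.59 (interval -0.37 to 1.54, limma p of 0.214 unadjusted and 0.99999 adjusted), but only treated bladder 2 lay above the control mean, and without it the difference was -0.13. Peg3 had a mean difference of -0.37 (interval -1.08 to 0.35, limma p of 0.298 unadjusted and 0.99999 adjusted); it was -0.67 without treated bladder 2 and -0.02 without treated bladder 3. The other 6 differences lay between -0.14 for Grb10 and 0.07 for Dlk1. Without the near-mean arrays, which leaves only control bladders 1 and 2, Mest was 0.19, against -0.09 with all arrays, and Plagl1 -0.32, against 0.00. The treated bladders also stand in the comparison with tumor, so the values of these comparisons share arrays.

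Bladder tumor against control bladder asked whether the members differed before any treatment. Here too limma called 0 members and 0 of all genes (0%), with 1291 genes and 0 members at an unadjusted p under 0.05, and 0 members had groups that did not overlap, against 0.179% of all genes. Peg10 averaged 5.61 ± 0.68 in tumor (SD, n = 7) and 4.93 ± 0.19 in control bladder (SD, n = 5). Its difference was 0.68 with a standard error of 0.37 and an interval of -0.08 to 1.45, and its limma p was 0.0777 unadjusted and 0.999 adjusted. All 7 tumors were above the control mean; without tumor 1 the difference was 0.47. Peg3 had the opposite sign, at 5.91 ± 0.30 in tumor (SD, n = 7) and 6.35 ± 0.34 in control bladder (SD, n = 5), with all 7 tumors below the control mean. Its difference was -0.45 (interval -1.02 to 0.13, limma p of 0.119 unadjusted and 0.999 adjusted). Mest and Grb10 had differences of 0.20 and 0.24, with limma p-values of 0.158 and 0.246 before adjustment; without tumor 6 they were 0.12 and 0.10. Igf2, Dlk1, Cdkn1c and Plagl1 differed by -0.06, 0.08, -0.06 and -0.09. Beside these values, all 9 smooth muscle markers (median -1.01) and 11 of 12 urothelial markers (median -0.26) had a lower mean in tumor than in control bladder. All 10 leukocyte markers (median 0.26) and all 9 cell cycle markers (median 0.38) had a higher one. limma called 0 of these markers, and their part in the result was not tested.

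Metastasis against bladder tumor gave the smallest unadjusted p of any member. Peg3 averaged 6.63 ± 0.80 in metastasis (SD, n = 4) and 5.91 ± 0.30 in tumor (SD, n = 7). The difference was 0.72 with a standard error of 0.29 and an interval of 0.11 to 1.34, and all 4 metastases lay above the tumor mean. Its limma p was 0.0238 unadjusted and 0.825 adjusted, so it did not pass. Metastasis 4, a near-mean array, read 5.97 and so lay close to the tumor mean. Without metastasis 1 the difference was 0.34. It was 1.32 without the near-mean arrays, which include metastases 3 and 4. Igf2 had a difference of -0.25 (interval -0.52 to 0.01, limma p of 0.0573 unadjusted and 0.825 adjusted), with all 4 metastases below the tumor mean. limma called 0 members and 0 of all genes (0%), with 1810 genes at an unadjusted p under 0.05, and 0 members had groups that did not overlap, against 0.514% of all genes. The other 6 members differed by -0.38 (Peg10) to 0.06 (Grb10), and Peg10 by -0.17 without tumor 1 and -0.14 without metastasis 2. Metastasis 1 also had the highest mean of the 9 cell cycle markers (7.24), and metastases 1 and 2 had hepatocyte marker means of 6.09 and 7.44. The part of these in the result was not tested.

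The treated metastasis is a single array and is given beside the 4 untreated ones with no test. Mest was 0.65 and Grb10 0.63 above the mean of the metastases, and both were above their highest value. Igf2 and Dlk1 were below the lowest metastasis, by -0.21 and -0.14 relative to the mean. Peg3 at 0.33, Peg10 at -0.41, Cdkn1c at -0.14 and Plagl1 at -0.21 stayed within the range. Thus 4 of 8 members (50%) lay outside the range of the 4, as did 33.5% of all genes. The treated metastasis and metastasis 1 had lower receptor medians (4.55 and 4.61) than the other 3 metastases (4.84 to 4.88). By rank among the receptor genes Igf2 was above 77.8% of them in the treated metastasis, within 72.4% to 83.4% in metastases, and Dlk1 was above 57.4%, against 40.8% to 55.9% in metastases. A repeated quantile normalization gave -0.12 for Igf2 and -0.03 for Dlk1, so the low readings of these 2 members depend on the scale. For Mest and Grb10 it gave 0.55 and 0.49, and by rank both were above more receptor genes (99.1% and 99.3%) than in any of the 4 metastases. The treated metastasis had means of 7.43 for fibroblast markers and 6.92 for cell cycle markers, against 6.58 to 6.97 and 5.98 to 7.24 in metastases. The organ of each metastasis is not given, and the part of tissue makeup in these values was not tested.

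Wider lists placed the members among other genes of the pathway. Of 31 other imprinted genes expressed from the paternal copy 23 were analysed, and of 41 expressed from the maternal copy 37. In treated bladder minus tumor limma called 0 of either list, of 26 genes that set, read or remove DNA methylation and imprints and of 16 genes of the IGF axis, as of all genes (0%). The paternal list had 11 genes with a higher and 12 with a lower mean in treated bladder (median -0.01), and the maternal list 21 and 16 (median 0.02). The members had 4 and 4 (median 0.01), beside 14879 and 15263 of all genes (median -0.00). The machinery list had 8 higher and 18 lower (median -0.04), and the IGF axis 5 and 11 (median -0.06). Of the 23 paternal genes 13 were above the receptor level on no array, and of the 37 maternal genes 16. The same held for 5 of the 26 machinery genes and 4 of the 16 IGF axis genes, beside 45.9% of all genes.

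Kcnq1ot1, the paternal antisense RNA that silences the domain of Cdkn1c, averaged 5.30 ± 0.17 in treated bladder and 5.57 ± 0.19 in tumor (SD, n = 3 and 7), a difference of -0.26 with a limma p of 0.145 before adjustment. Ano1, a chloride channel, had the highest difference among the named maternal genes, 0.33, at 6.54 ± 0.41 in treated bladder and 6.20 ± 0.53 in tumor. Slc22a18, a transporter next to Cdkn1c, differed by 0.18, and Ascl2, a transcription factor of the placenta and gut stem cells, by -0.18. In the machinery list, Hells, a chromatin remodelling helicase needed for DNA methylation, averaged 6.08 ± 0.35 in treated bladder and 6.51 ± 0.57 in tumor, a difference of -0.43. Uhrf2, a reader of modified DNA, differed by -0.25 and Dnmt3a, a de novo DNA methyltransferase, by -0.13. Of the IGF axis, Igfbp4, which binds IGFs, read 7.54 ± 0.55 in treated bladder and 7.86 ± 0.60 in tumor, a difference of -0.32. Irs1, which relays signals of the insulin and IGF1 receptors, differed by -0.22 and Igfbp6, a binding protein that prefers Igf2, by -0.12. The last of the named paternal genes, Jade1 and Mkrn3, differed by -0.15 and -0.23. All of these groups overlapped and none passed limma's test (adjusted p = 0.99997). Mkrn3, Slc22a18, Ascl2 and Irs1 were above the receptor level on 0 arrays. The signal behind their differences could not be told from that of silent genes.

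**Figure D4:**
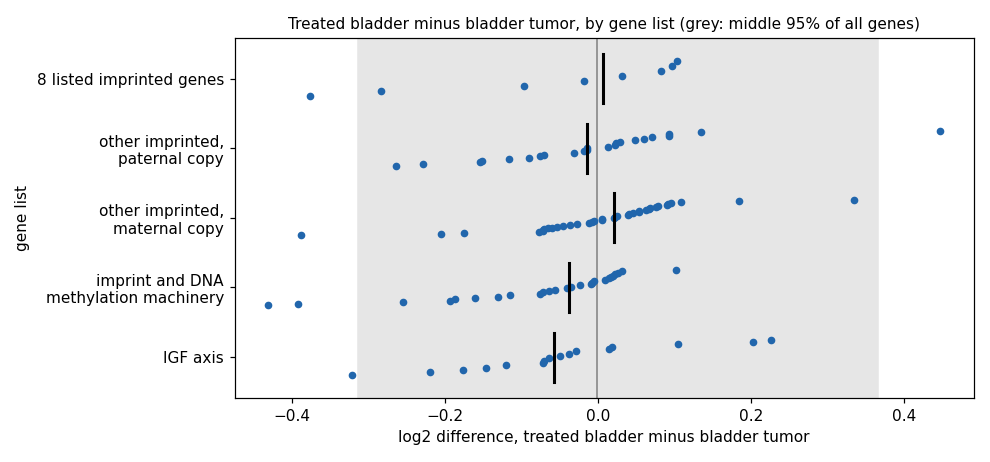
Log2 differences, treated bladder minus tumor, of the members and of each wider list, with 1 point per gene, black bars for medians and a grey band for the middle 95% of all genes, -0.31 to 0.37. The medians lie between -0.06 (IGF axis) and 0.02 (other imprinted genes expressed from the maternal copy), beside -0.00 for all genes.

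In tumor minus control bladder the same lists had medians of 0.02 (paternal, 12 higher and 11 lower), -0.01 (maternal, 17 and 20), 0.01 (machinery, 14 and 12) and 0.09 (IGF axis, 11 and 5), beside 0.01 for the members and for all genes, and limma called 0 of them. Ndn, the paternally expressed growth suppressor necdin, averaged 6.06 ± 0.73 in tumor and 6.90 ± 1.02 in control bladder, a difference of -0.84 with a limma p of 0.0724 before adjustment. Hells stood at 6.51 ± 0.57 in tumor and 6.01 ± 0.43 in control bladder, a difference of 0.51, also with a limma p of 0.0724. Pappa, a protease that cleaves Igfbp4, differed by -0.39 and Igfbp4 by 0.33. The remaining 8 genes named by the rule differed by -0.24 (Phlda2, a maternal restraint on placental growth) to 0.19 (Dnmt3l, a cofactor of de novo methylation). Among these 8, Dnmt3l, Slc22a18, Peg12 and Igf2bp3 were above the receptor level on 0 arrays. In metastasis minus tumor the medians were -0.03 (paternal), 0.02 (maternal), 0.03 (machinery) and -0.06 (IGF axis), beside -0.11 for the members and -0.03 for all genes. In treated minus control bladder they were -0.02, -0.00, -0.03 and -0.00 in the same order of lists, beside -0.01 for the members and 0.01 for all genes. limma called 0 in both, as among all genes.

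In all, 3 pairs of neighbours in shared imprinted domains were followed over the 20 arrays. The permutations moved arrays across groups, so their p-values do not separate a relation within groups from differences between groups. Dlk1 and the Meg3 shared row, which belong to a domain with opposite parental expression, had a Pearson r of 0.56 (permutation p = 0.00911, adjusted over the 3 pairs 0.0273) and a Spearman rho of 0.39 (permutation p = 0.0882, adjusted 0.244). Without tumor 2 and the treated metastasis, the arrays with Dlk1 farthest from its median, r was 0.30 (adjusted permutation p = 0.294). Leaving out arrays chosen in this way narrows the range of Dlk1, which tends to lower r. The fall in r thus cannot show whether the relation rests on those arrays. Within the 12 arrays that are not near-mean r was 0.63 (adjusted permutation p = 0.0801), and with arrays centred on their medians it was 0.43 (adjusted permutation p = 0.174). Dlk1 was under the receptor level throughout. Igf2 and the H19 shared row had r = -0.24 (permutation p = 0.311) and rho = -0.31 (permutation p = 0.182), with r = -0.48 without the 2 farthest arrays (adjusted permutation p = 0.138) and -0.28 within the 12. Peg10 and Sgce, which are transcribed in opposite directions from a common start region, had r = -0.33 (permutation p = 0.151) and rho = -0.27 (permutation p = 0.244). That r was -0.26 without the 2 farthest arrays and -0.33 within the 12.

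The members that varied most over the 20 arrays were Peg10 (SD 0.67), Peg3 (SD 0.56) and Grb10 (SD 0.39), and the genes most like each are given by Pearson r over all arrays, as a description of arrays that share groups and tissue makeup. For Grb10 they were Mrc2 (r = 0.93), a collagen receptor, Tanc2 (0.92), Angptl7 (0.90), Col1a1 (0.90), a chain of type I collagen, and Fbln2 (0.90), a matrix protein. All 5 were highest in tumor 6 and the treated metastasis, where fibroblast markers averaged 8.20 and 7.43. These markers averaged 7.58 in control bladder 1, where Grb10 read 5.82, and 7.25 in treated bladder 2, where it read 5.41. In tumor 2 they also averaged 7.25, with Grb10 at 6.43. The part of fibroblasts in these correlations was not tested. For Peg3 they were Abcc5 (0.90), an efflux transporter, Ptprd (0.85), a receptor phosphatase, Neo1 (0.83), a netrin receptor, Arhgef12 (0.82) and Tmcc1 (0.82). All 5 were highest in metastasis 1. For Peg10 they were Oas3 (0.80), an interferon-induced enzyme, Slfn10-ps (0.79), Pkp1 (0.79), a desmosome protein, Tiam2 (0.78) and Ppp1r14c (0.74). Their highest arrays were tumor 1 (3 genes), tumor 6 and treated bladder 2, the 3 arrays in which Peg10 itself was high. Oas3, Pkp1 and Ppp1r14c peaked at 5.30, 5.14 and 5.28, under the lowest receptor level of any array (5.45). Their signal could thus not be told from that of silent genes. Slfn10-ps and Tiam2 peaked at 5.64 and 5.61 in tumor 1, under its receptor level of 6.26.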

How the data were processed

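Total RNA from 20 tissue samples was labelled from 12 ng and hybridised to Affymetrix whole-transcript arrays, per the labels' protocols. The deposited log2 values come from RMA, run by the authors in Expression Console (Affymetrix) per the submitters' processing notes, with versions and batch handling not given in the sources used here. This method includes quantile normalization, but array medians still ran from 5.07 to 5.42 in the deposited values, so shifts shared by many genes remain between arrays. The table holds 65956 rows with values from 2.29 to 22.0 and none missing. No scanner files were used, so signal over background was not computed; the number of arrays limits the precision.

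Rows were named through the platform annotation, and 2146 rows with several symbols and 33206 unlisted rows entered no test. Symbols were updated by gene ID for 827 rows. The row with the highest mean was kept per gene, which left 30142 genes; each member with its own row had 1 row. limma 3.58.1 (R 4.3.3; lmFit and eBayes, two-sided) was fitted to the 19 arrays of the 4 replicated groups with no covariates. Benjamini-Hochberg adjustment ran over all genes, separately for the 4 comparisons, with calls at an adjusted p under 0.05. The script was tested on simulated data, in which the changes were known. Near-mean arrays were set apart after the data were seen, as those correlating above 0.2 with no other array, without use of the groups. Correlations have permutation p-values from 100000 resamples.

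The members and lists were chosen with earlier results of these data known. All members were named in each group; from each wider list the 3 genes with the smallest p in treated bladder minus tumor and in tumor minus control bladder; and for the 3 members with the largest SD the 5 genes with the highest r, leaving out predicted and small RNA genes. Other settings were a fit of only the 2 groups compared, weights per array, a robust trended prior, a repeated quantile normalization, centred arrays, a filter on dim genes, mean values over a gene's rows and a replicate block. Single arrays and the near-mean arrays were also left out and, added after the data were seen, the 2 farthest arrays of a correlation.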

Additional observations from a re-analysis of the deposited data

Results flagged for a closer look

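For 3 of 8 members (37.5%) the treated metastasis and all 3 treated bladders lay on opposite sides of the means of their untreated groups, as they did for 13.8% of all genes. The difference between the comparisons was not tested, the metastasis value rests on 1 treated array, and no member passed a test in bladder. Plagl1 was at -0.206 in the treated metastasis relative to the mean of the metastases, within their range, with all 3 treated bladders above the tumor mean (0.10 on average). Mest was at 0.65 in the treated metastasis, with all 3 treated bladders below the tumor mean (-0.28 on average). Grb10 was at 0.626 in the treated metastasis, with all 3 treated bladders below the tumor mean (-0.38 on average). Dixon's test found 0 arrays apart in 30 groups of 4 to 7 values (chance flags about 1 in 20); the treated bladders, with 3 arrays, were not tested, and there Peg10 read 4.80, 6.95 and 4.80.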

How the results depend on the processing

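The count of members called was 0 in all 4 comparisons under each of 29 alternatives, and so was the count of all genes called, except in these cases. Without the near-mean arrays 1 gene was called in treated minus control bladder and 1 in tumor minus control bladder, Xist in both, and 4 in metastasis minus tumor (Ahsg, Ctsk, Lyz1 and Prg4). In metastasis minus tumor array weights gave 2 (Defb5 and Hnrnph2), and leaving out single arrays gave 0 to 2, with those same genes called without tumor 6 and without control bladder 5. The correlation of Dlk1 with the Meg3 shared row no longer passed at 0.43 with centred arrays, at 0.63 without the near-mean arrays and at 0.30 without the 2 farthest. The cause was not tested. With the replicate number as a block (replicate block), Mest was -0.27 and Grb10 -0.37 in treated bladder minus tumor, with 0 members called. Same-numbered arrays of these groups had correlations of 0.44, -0.32 and 0.06. So few values cannot show whether the numbers pair samples. Of 924 alternative values of members, 0 were called, 44 had a limma p under 0.05 before adjustment and 34 had the other sign, in 11 of 32 member differences. In tumor minus control bladder without the near-mean arrays, Mest was 0.58, Plagl1 -0.43, Peg3 -0.88 and Peg10 1.15, none called; Peg3 in metastasis minus tumor was then 1.32. The repeated quantile normalization was not run for the shared rows.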
